A study of Arabidopsis thaliana with 6 samples.

Results

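A set of 63 genes was examined in Arabidopsis seedlings. Their transcripts were close to absent from the wild-type libraries of the genotype comparison and present in those labelled epl1a/b. Some had reads in the separate dark and light wild-type libraries, described below. The members were chosen on the normalised read counts of the genotype comparison itself. A gene entered when its values in both Col-0 libraries summed to less than 3 and its value was at least 10 in each epl1a/b library. Of the 32548 genes in the table, 67 met these limits. The choice named 5 genes to be left out, of which 4 met the limits, so 63 remained. The mirrored limits, a sum under 3 in epl1a/b and at least 10 in each Col-0 library, held for 29 genes. Because the members were picked on these values, their difference between the genotypes is given as a description, without a test.

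RNA was sequenced from whole seedlings aged 2 weeks, in 2 libraries labelled epl1a/b(-/-), 2 libraries of the wild-type accession Col-0, 1 library of Col-0 plates wrapped in foil for darkness and 1 library of Col-0 in light. The plants of all 6 libraries were raised on Murashige and Skoog plates at 23 °C under days of 16 h light and 8 h dark, and the sources used here do not give the duration of darkness. Each epl1a/b title carries the prefix H4K5Ac, which names an acetylated histone, although the remaining labels describe total RNA, and these libraries were treated as RNA-seq. Single-end 50 bp and paired-end 150 bp sequencing are both named, without a statement of which library had which, and no label states that replicate libraries were grown separately, so each p-value reflects library-to-library spread alone, which may be technical.

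Enhancer of Polycomb-like proteins such as EPL1A and EPL1B are subunits of NuA4, a complex that acetylates histones H4 and H2A and is linked to active transcription. Many plant genes of flowers, seeds and endosperm are kept off in leaves and roots by chromatin. Polycomb group complexes do this through methylation of histone H3 at lysine 27 and ubiquitination of H2A, and DNA methylation does it at repeats and at a few genes such as FWA. The members are described by role, beside the genes that encode this machinery.

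The libraries were checked against their labels. EPL1A had normalised counts of 93.8 and 79.2 in epl1a/b and 282 and 225 in Col-0. EPL1B had 4656 and 4399 in epl1a/b and 335 and 351 in Col-0, so this gene was higher in the libraries labelled as its mutant. Where the text writes epl1a/b, it means the libraries labelled epl1a/b, and every direction given rests on that label. Depth was nearly equal, at 18796289 to 19088784 reads per library. The leaf transcript RBCS1A had normalised counts of 166630 and 182370 in epl1a/b and 331240 and 298740 in Col-0. All 5 leaf markers were present in all 4 libraries. Limma called all 5 lower in epl1a/b, beside 24.1% of all genes tested, with log2 changes of -0.79 (RCA) to -2.86 (PSAD2). LHCB1.1 had 15646 and 13285 in epl1a/b and 74181 and 69919 in Col-0 (log2 change -2.32 ± 0.10, SE; limma adjusted p = 2.92e-06), and the part of this shift in the members' values was not tested. In whole seedlings, fewer cells of a type and less RNA per cell cannot be told apart.

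Sequences are shown for 5 members that recur below: the member with the highest level (AT1G30170), the kinase-like gene with nearly equal libraries (AT3G03930), the classic methylation-silenced gene FWA, the peptide gene PLS and the snoRNA gene AT5G66564. They were read 5′ to 3′ from the RefSeq assembly TAIR10.1, while the submitters' processing notes name TAIR10. The first 3 are the 250 bases before the annotated gene start. AT1G30170 (chr1:10609619-10609868, minus strand) holds 1 RY element, CATGCA, in capitals 208 bases before the start. AT3G03930 (chr3:1012811-1013060, minus strand) holds overlapping TATA motifs and a telobox, AAACCCTA, in capitals. In FWA (chr4:13038110-13038359, plus strand) the capitals mark a 38-base word that occurs at 2 places, starting 111 and 66 bases before the gene start. The coding sequence of PLS (chr4:18329189-18329299, minus strand, 111 bases) has its start and stop codons in capitals. The snoRNA (chr5:26567521-26567604, plus strand, 84 bases) has in capitals the letters TGATGA and CTGA, which match the conserved C and D boxes of this RNA class.
AT1G30170: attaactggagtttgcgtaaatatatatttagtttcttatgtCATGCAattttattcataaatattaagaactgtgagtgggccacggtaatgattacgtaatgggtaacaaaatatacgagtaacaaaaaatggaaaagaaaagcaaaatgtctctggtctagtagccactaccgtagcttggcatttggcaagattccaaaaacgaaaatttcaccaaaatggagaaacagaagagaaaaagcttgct
AT3G03930: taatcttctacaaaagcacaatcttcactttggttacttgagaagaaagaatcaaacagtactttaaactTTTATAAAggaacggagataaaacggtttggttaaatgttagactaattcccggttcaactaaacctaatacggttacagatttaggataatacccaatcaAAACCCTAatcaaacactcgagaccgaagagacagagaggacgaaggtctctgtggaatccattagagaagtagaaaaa
FWA: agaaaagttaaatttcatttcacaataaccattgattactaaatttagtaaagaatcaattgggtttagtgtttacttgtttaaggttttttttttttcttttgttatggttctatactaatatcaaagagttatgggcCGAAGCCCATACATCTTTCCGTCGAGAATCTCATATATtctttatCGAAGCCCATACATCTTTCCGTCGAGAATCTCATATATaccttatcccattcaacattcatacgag
PLS: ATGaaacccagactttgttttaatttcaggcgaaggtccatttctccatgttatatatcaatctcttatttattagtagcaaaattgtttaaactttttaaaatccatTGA
AT5G66564: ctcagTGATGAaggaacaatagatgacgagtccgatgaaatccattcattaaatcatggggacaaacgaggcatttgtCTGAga

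The levels of the members in epl1a/b were low compared with most genes. Their mean normalised count in epl1a/b was 10.9 at the lowest, 20.1 at the median and 215 at the highest. The median of all 23658 genes tested was 231 in epl1a/b and 232 in Col-0, so the highest member stood at percentile 48.6 of tested genes and the median member at percentile 18.4. Only 6 members averaged 50 or more and 30 averaged under 20. Summed over the 63 members, normalised counts were 1719 and 1805 in epl1a/b and 27.6 and 41.4 in Col-0. In Col-0, 17 members had 0 reads in both libraries together, 26 had 1 read and 20 had 2 reads. For the 17 without a read, the mean in epl1a/b was at least 3.75-fold to at least 68.5-fold higher than a floor of 3 reads per Col-0 library, with a median bound of 5.29-fold. All 63 members were called higher by limma, beside 22.5% of all genes tested, and nothing is read from this count because the rule used the same values.

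**Figure D1:**
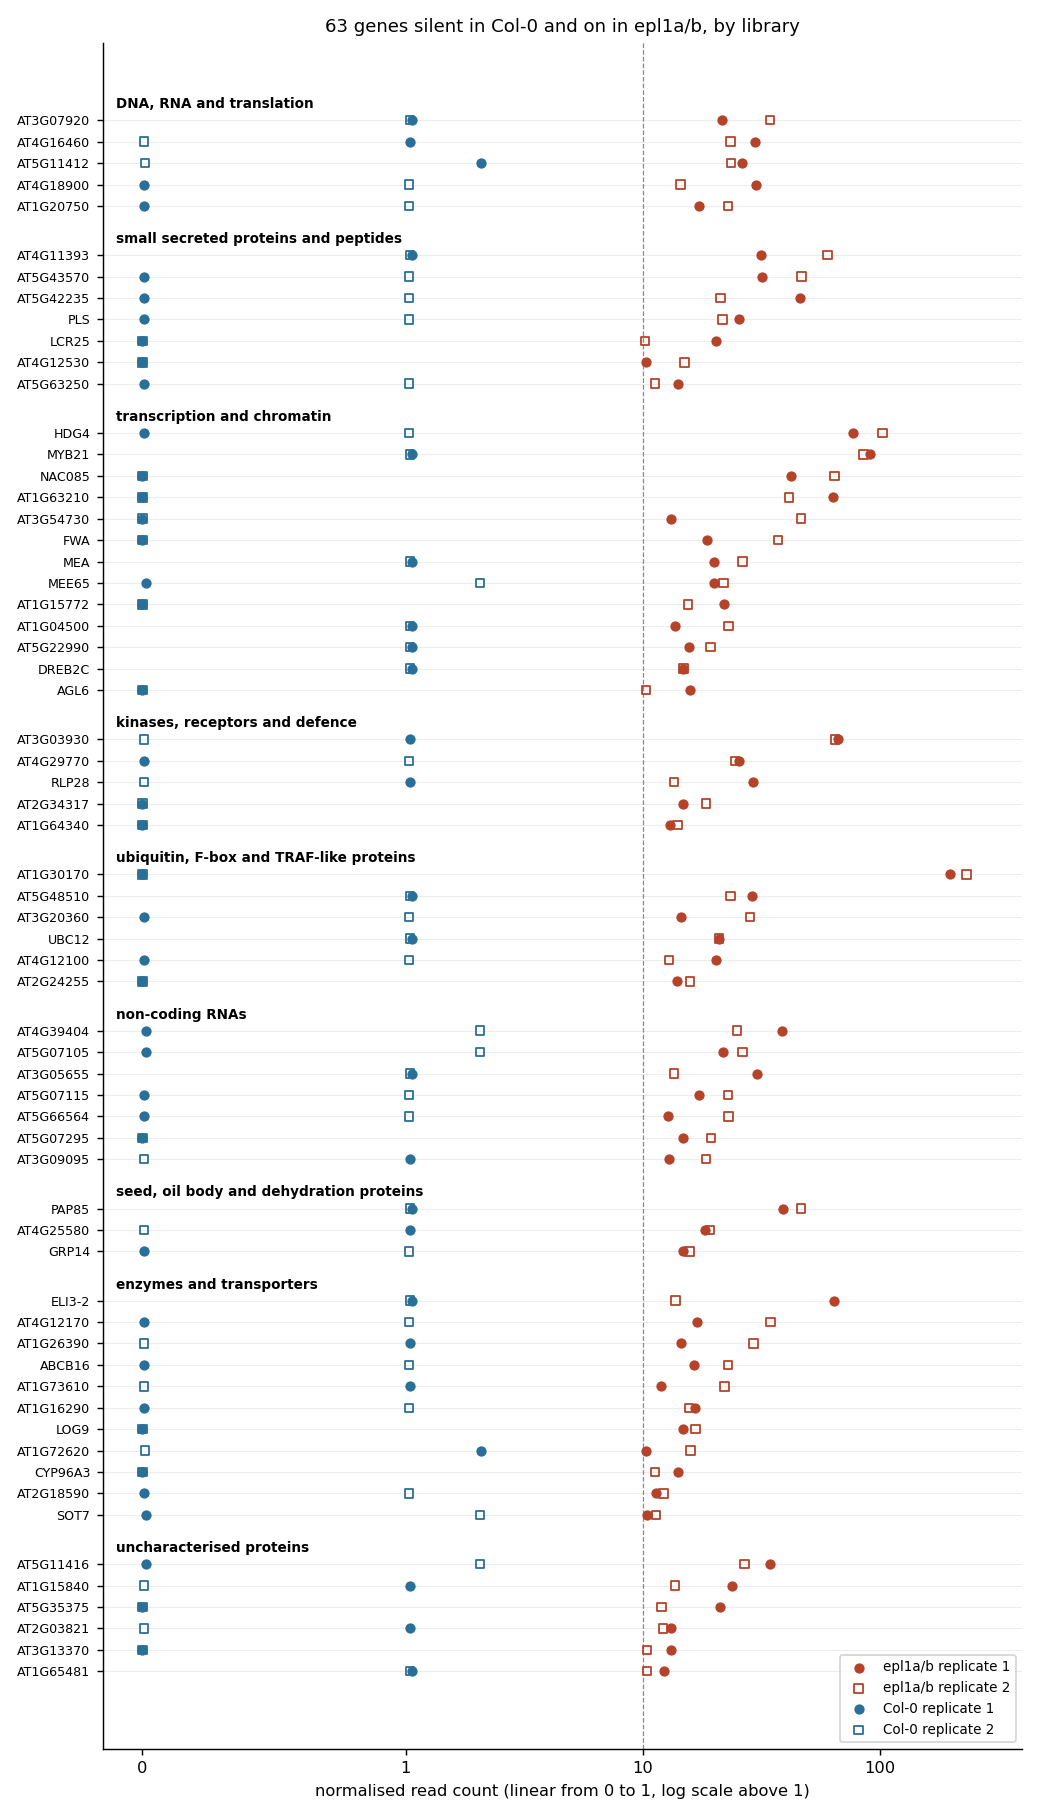
Normalised read counts (x axis, linear below 1 and logarithmic above) of the 63 genes (rows, grouped by role) in each of the 2 epl1a/b libraries (red) and the 2 Col-0 libraries (blue); the dashed line marks the limit of 10. Most epl1a/b values lie between 10 and 50, AT1G30170 stands apart at 198 and 232, and the Col-0 values lie at 0 to 2 reads.

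Membership depended on a handful of reads at each limit. Just inside the epl1a/b limit were LCR25, AT1G72620 and AGL6, whose lower epl1a/b library stood at 10.2, 10.3 and 10.3. Just outside were CYP82G1, with 42.9 and 9.71 in epl1a/b and 0 reads in Col-0, AT1G23770 with 9.60 and 9.61, and IAA15 with 9.57 and 10.5. Just inside the Col-0 limit was a tie of members with 1 read in each Col-0 library. MEA, AT1G04500 and AT1G65481 come first among them by locus number, and others such as PAP85 and MYB21 hold the same Col-0 values. Just outside were AT5G53230, AT2G41470 and AT2G18190, each with 0 and 3 reads in Col-0, a sum of 3.11. Counting those just named, 25 genes met the epl1a/b limit with a Col-0 sum of 3 to under 4. Under the Col-0 limit, 129 genes, CYP82G1, AT1G23770 and IAA15 included, had a lower epl1a/b library of 5 to under 10.

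Agreement of the 2 epl1a/b libraries was partly fixed by the rule, which required a value of at least 10 in each. Their ratios are given as a description. The ratio of the higher to the lower library ran from 1.00 to 4.67 with a median of 1.32. It was under 1.5 for 39 members and at least 2 for 8 members. The first library was the higher one for 27 members and the second for 36. The exact 95% Clopper-Pearson interval of the first library's share of a member's epl1a/b reads left out the depth share of 50.0% for 13 of 63 members, and such intervals cover counting error only. The largest ratio belonged to ELI3-2, a cinnamyl alcohol dehydrogenase induced by pathogen elicitors, with 64.3 and 13.8 in epl1a/b and 1 read in each Col-0 library. The first library held 80.9% of its reads (71.2% to 88.5%). AT3G54730, annotated as a transcription repressor, had 13.2 and 46.4 in epl1a/b and 0 reads in Col-0, a ratio of 3.52. Of its 50-base words, 69.6% occur elsewhere in the genome, so its reads could belong to a copy. The next largest ratio, 2.23, was that of the non-coding RNA AT3G05655.

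**Figure D2:**
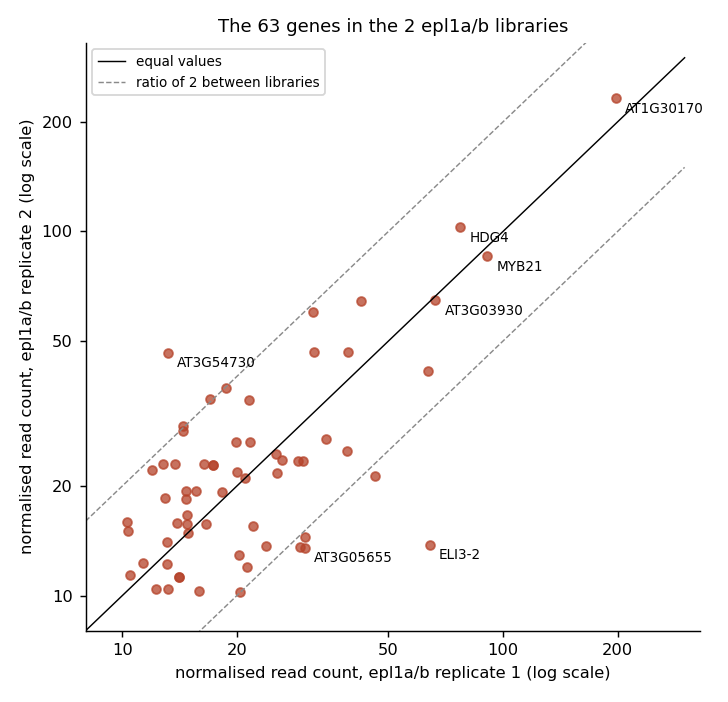
Normalised read count of each of the 63 genes in epl1a/b replicate 1 (x axis) and replicate 2 (y axis), both on log scales; the solid line marks equal values and the dashed lines a ratio of 2. The ratio was under 1.5 for 39 genes and at least 2 for 8 genes, of which ELI3-2 and AT3G54730 lie farthest out, on opposite sides. The rule required at least 10 in both libraries.

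Transcription and chromatin proteins formed the largest role group, with 13 members, and 6 of them had 0 reads in Col-0. HDG4, a homeodomain leucine-zipper protein of the class that acts in epidermal cells, had normalised counts of 77.2 and 103 in epl1a/b, from 89 and 117 reads. In Col-0 it had 0 and 1 read. MYB21, a MYB factor that promotes stamen and petal growth in jasmonate signalling, had 91.0 and 85.6 in epl1a/b and 1 read in each Col-0 library. After AT1G30170 these had the highest means of all members, and in each the libraries of the genotypes did not overlap, as the rule required. Of the exon bases of MYB21, 21.0% are also annotated to genes on the other strand. Both of these partners, AT3G27809 and AT3G05315, had 0 reads in all 4 libraries.

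NAC085, a NAC-domain transcription factor, had 42.3 and 64.4 in epl1a/b against 0 reads in Col-0, at least 17.0-fold higher. AT1G63210, annotated as a relative of the elongation factor Spt6, had 63.4 and 41.4 in epl1a/b against 0 reads in Col-0, at least 16.7-fold higher. AGL6, a MADS-box factor of floral development, had only 15.9 and 10.3 in epl1a/b and 0 reads in Col-0. DREB2C, an AP2-type factor of heat and drought responses, had 14.8 and 14.9 in epl1a/b and 1 read in each Col-0 library. The remaining members of the group had means of 17.5 to 29.8 and were MEE65, a Brf1-like protein, AT1G15772, a mediator subunit, AT1G04500 of the CCT motif family, the zinc finger gene AT5G22990, AT3G54730, FWA and MEA. MEE65 shares 476 exon bases with RPI2 on the other strand. RPI2 had 500 and 534 in epl1a/b and 949 and 797 in Col-0, and as the sources used here do not give the strand setting of counting, reads of that stretch cannot be told apart.

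FWA and MEA are textbook cases of genes that are silent in the body of the plant and active from the maternal copy in endosperm. FWA, a homeodomain factor whose ectopic activity delays flowering, is held off by DNA methylation over repeats at its 5′ end. It had normalised counts of 18.7 and 37.2 in epl1a/b, from 22 and 42 reads, and 0 reads in Col-0. The mean in epl1a/b was at least 8.91-fold higher. MEA, the SET-domain histone methyltransferase of the Polycomb complex of the seed, had 19.9 and 26.4 in epl1a/b and 1 read in each Col-0 library. The other 3 genes of the endosperm list showed no such pattern. AGL62 had 14 and 16 reads in epl1a/b and 17 and 13 in Col-0, PHE1 had 1 and 0 reads in epl1a/b and 2 and 0 in Col-0, and FIS2 had 1 and 1 read in epl1a/b and 0 and 0 in Col-0. The 38-base repeat printed above is rare: a repeated word at least as long was found within this window for 48 of 32548 genes (0.147%). A repeated word of at least 20 bases was present for 1 of 63 members and for 1.61% of all genes. This search was made after the FWA sequence had been seen.

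Proteins of seeds, oil bodies and drying tissue made up 3 members. PAP85, a vicilin-like seed storage protein, had 39.1 and 46.5 in epl1a/b and 1 read in each Col-0 library. AT4G25580, a CAP160-type protein of cold and dehydration responses, had 18.3 and 19.2 in epl1a/b against 1 and 0 reads in Col-0. GRP14, an oleosin-type glycine-rich protein of the pollen coat, had 14.8 and 15.8 in epl1a/b against 0 and 1 read in Col-0. The libraries of this group were close to each other within each genotype, which the rule required in Col-0 and favoured in epl1a/b. Among 14 seed genes, none of them a member, 5 could be tested and 2 were called higher in epl1a/b, beside 22.5% of all genes tested. The median log2 change of the 5 was 0.65, beside 0.02 for all genes. FUS3, a master regulator of seed maturation, had 21.2 and 14.7 in epl1a/b and 2.14 and 4.13 in Col-0 (log2 change 2.21 ± 0.47, SE; limma adjusted p = 0.00625). CRA1, a cruciferin storage protein, had 16 and 16 reads in epl1a/b and 5 and 2 reads in Col-0 (1.77 ± 0.49; limma adjusted p = 0.0205). Neither call held when either epl1a/b library was left out, the first or the second, where the log2 changes were 1.96 and 2.46 for FUS3 and 1.77 and 1.77 for CRA1. FUS3 also lost its call without Col-0 replicate 1 (1.86) and CRA1 without Col-0 replicate 2 (1.26) and by DESeq2 (1.94). Summed normalised counts of the list were 74.6 and 37.3 in epl1a/b and 12.7 and 12.5 in Col-0, of which SESA1 gave 24.4 and 0 in epl1a/b. CRU3, OLEO2, SESA2, SESA3 and SESA5 had 0 reads in all 4 libraries. The part of seed-type cells in the values of PAP85 was not tested.

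Flower and pollen markers were set beside MYB21, AGL6 and GRP14 in the same way. Of 7 flower genes 1 was called higher, beside 22.5% of all genes tested, and the median log2 change was 0.93, beside 0.02. PI, a petal and stamen identity factor, had 23.3 and 32.6 in epl1a/b and 10.5 and 6.26 in Col-0 (1.65 ± 0.39; limma adjusted p = 0.0109). This call was lost without the second Col-0 library (1.31) and without the first or the second epl1a/b library (1.88 and 1.41), and by DESeq2 (1.75). AG, a stamen and carpel identity factor, had 13.0 and 15.8 in epl1a/b and 6.34 and 6.23 in Col-0 and did not pass (1.08 ± 0.39; limma adjusted p = 0.0548), although it was called under 4 of the other settings, among them edgeR (1.20). AP3, the partner of PI, had 31.9 and 15.3 in epl1a/b and 1.16 and 11.3 in Col-0 and did not pass (2.17 ± 0.88; limma adjusted p = 0.0935). AP1, SEP1, SEP2 and SEP3 did not pass either, with log2 changes of 0.93, 0.46, -0.18 and -0.09. The summed flower markers were 208 and 161 in epl1a/b and 76.2 and 266 in Col-0, so the genotypes overlapped, and SEP3 gave 131 and 85.7 in epl1a/b and 54.9 and 231 in Col-0. Without SEP3, a split made after the values were seen, the sums of the other 6 were 76.9 and 75.1 in epl1a/b and 21.3 and 34.1 in Col-0 and did not overlap. Of 12 pollen and anther genes 5 could be tested and limma called 0. At an unadjusted limma p under 0.05 there was 1 of the 5, beside 12819 of all 23658 genes tested. DESeq2 also called 0 of the 9 it tested, and none passed the filter of edgeR. Their sums were 23.8 and 18.2 in epl1a/b and 10.7 and 18.6 in Col-0. MS1, A9 and PPME1 had 0 reads in all 4 libraries, and GRP17 and GRP19 did not pass (1.07 and 0.07). GRP18, the gene upstream of GRP14 and not on the list, had 33.3 and 28.7 in epl1a/b and 7.35 and 4.18 in Col-0. It was called higher (2.28 ± 0.39; limma adjusted p = 0.00248) and was added after its values had been seen. The part of floral cells in the members' values was not tested.

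Small secreted proteins and peptides numbered 7. AT4G11393, of the defensin-like family of cysteine-rich peptides, had 31.6 and 60.2 in epl1a/b and 1 read in each Col-0 library. AT5G43570, a potato type I inhibitor of serine proteases, had 31.9 and 46.7 in epl1a/b against 0 and 1 read in Col-0. AT5G42235, uncharacterised, had 46.1 and 21.2 in epl1a/b against 0 and 1 read. These 3 ranked among the 11 highest of all members. LCR25, another cysteine-rich peptide, had 20.4 and 10.2 in epl1a/b and 0 reads in Col-0. AT4G12530 of the lipid-transfer and albumin superfamily and AT5G63250 with an X8 carbohydrate-binding domain had means below 15. PLS, which encodes the POLARIS peptide of root growth and ethylene signalling, had 25.4 and 21.7 in epl1a/b against 0 and 1 read in Col-0. Of 6 root markers, 1 was called higher and 1 lower, beside 22.5% and 24.1% of all genes tested, with a median log2 change of -0.42. PYK10, a glucosidase of roots, had 82475 and 89939 in epl1a/b and 36550 and 44766 in Col-0 (1.09 ± 0.11; limma adjusted p = 0.000193). CASP1, of the Casparian strip, had 308 and 447 in epl1a/b and 664 and 651 in Col-0 (-0.82 ± 0.17; limma adjusted p = 0.0103), a call lost without Col-0 replicate 1 (-0.81) or replicate 2 (-0.84). The summed root markers, nearly all PYK10, were 83454 and 91249 in epl1a/b and 38256 and 46356 in Col-0, and their part in the value of PLS was not tested.

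The highest member, AT1G30170, was assigned to the group of 6 ubiquitin, F-box and TRAF-like proteins. Its annotation, a hypothetical protein with a DUF295 domain, names none of these classes. AT1G30170 had normalised counts of 198 and 232 in epl1a/b, from 227 and 265 reads, and 0 reads in both Col-0 libraries. Its mean was 215 ± 24.2 (SD, n = 2), at least 68.5-fold higher. No other member reached a mean of 100. Its neighbour on the opposite strand, AT1G30160, shares 57 exon bases with it. That gene had 141 and 154 in epl1a/b and 24.5 and 40.3 in Col-0 (log2 change 2.20 ± 0.26; limma adjusted p = 0.000389). The other 5 members of the group were the BTB/POZ gene AT5G48510, the TRAF-like gene AT3G20360, the ubiquitin-conjugating enzyme UBC12, the cullin-family gene AT4G12100 and the F-box gene AT2G24255, with means of 14.8 to 26.2. UBC12 had 21.0 in each epl1a/b library, from 24 and 24 reads, and 1 read in each Col-0 library.

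Kinases, receptors and defence proteins numbered 5. AT3G03930, a kinase-like protein, had 66.4 and 64.6 in epl1a/b against 1 and 0 reads in Col-0 and was the fourth highest member. AT4G29770, assigned to this group though annotated only as a target of trans-acting small RNAs, had 25.4 and 24.4 in epl1a/b against 0 and 1 read. RLP28, a receptor-like protein, had 29.3 and 13.6 in epl1a/b against 1 and 0 reads. AT2G34317 and the kinase AT1G64340 had 0 reads in Col-0 and means below 17 in epl1a/b. Replication, RNA and translation proteins numbered 5, with means of 20.1 to 28.0. They were the initiation factor gene AT3G07920, the CCCH zinc finger gene AT4G16460, the RNA-binding gene AT5G11412, the WD40 gene AT4G18900 and the RAD3-like helicase AT1G20750.

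The 11 enzymes and transporters had low levels apart from ELI3-2, with a median mean of 16.2. AT4G12170, of the thioredoxin superfamily, had 17.0 and 34.6 in epl1a/b against 0 and 1 read in Col-0, and 23.3% of its exon bases overlap another gene. LOG9, of the family that releases active cytokinin, had 14.8 and 16.7 in epl1a/b and 0 reads in Col-0. CYP96A3, a cytochrome P450, had 14.1 and 11.3 and SOT7, a sulfotransferase, 10.4 and 11.4 in epl1a/b, against 0 and 2 Col-0 reads in total. ABCB16, an ABC transporter, had 16.4 and 22.9 in epl1a/b against 0 and 1 read in Col-0. The remaining 5 were AT1G26390 (berberine-bridge type oxidase), AT1G73610 (GDSL lipase), AT1G16290 (transglycosylase), AT1G72620 (hydrolase) and AT2G18590 (major facilitator).

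The 6 members grouped as uncharacterised proteins were AT5G11416, AT1G15840, AT5G35375, AT2G03821, AT3G13370 and AT1G65481. Of these, AT3G13370 is annotated as a formin-like protein. AT5G11416 was the highest, with 34.3 and 26.9 in epl1a/b against 0 and 2 reads in Col-0. Non-coding RNAs made up 7 members (11.1%), against 41.7% of all genes under the Col-0 limit and 15.7% of the table. AT4G39404 led them, with 38.8 and 25.0 in epl1a/b against 0 and 2 reads. The snoRNA AT5G66564 had 12.8 and 23.0 against 0 and 1 read, and 42.9% of its 50-base words occur elsewhere. It lies between other snoRNA genes on the same strand. AT5G66562, 67 bases upstream, had 26.9 and 31.6 in epl1a/b and 4.18 and 1.06 in Col-0 (log2 change 3.21 ± 0.52; limma adjusted p = 0.00191). Leaving out the second epl1a/b library ended this call (3.10). AT5G66567, 55 bases downstream, had 3.43 and 5.29 in epl1a/b and 0 reads in Col-0. AT5G07115 overlaps AT5G07125 over 64.9% of its exon bases, so its reads are uncertain. The other 4 were AT5G07105, AT3G05655, AT5G07295 and AT3G09095.

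The 56 protein-coding members were longer than other silent genes. Their median exon length was 1303 bases, against 798 for the other 5812 coding genes under the Col-0 limit and 1552 for all 27444 coding genes of the table. Members without an intron made up 21.4%, against 35.1% of the other silent coding genes and 18.9% of all. Coding sequences under 400 bases made up 23.2% of members, against 31.2% and 13.0%. The limit of 10 was set on reads per gene, without a correction for length. GC content hardly differed, with medians of 40.4% for members, 41.3% for other silent genes and 41.1% for all.

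The dark and light Col-0 libraries played no part in the choice of members and held 18798088 and 27831231 reads. Each is 1 library, so no test was made. Of the 63 members, 38 (60.3%) had at least 1 read in darkness and 34 (54.0%) in the light. The 10013 other genes under the Col-0 limit had a read in 11.8% of cases in the dark and 11.8% in the light. Members with 0 reads in both libraries numbered 16 (25.4%), against 82.0% of the other silent genes. At a stricter mark of 10 reads, 8 members were present in the dark, 7 in the light and 11 (17.5%) in either, against 2.38% of the other silent genes in either. Of the genes under the Col-0 limit, 6783 had 0 reads in all 4 libraries of the genotype table, which no member could.

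The other silent genes are no match for the members, since each member has at least 10 normalised reads in both epl1a/b libraries. The 129 genes just under that limit, with a lower epl1a/b library of 5 to under 10, came closer: 44.2% had a read in the dark and 47.3% in the light, and 34.1% had 0 in both. That group was added after the first counts had been seen. The shares were also set out by Col-0 reads, without a match on epl1a/b reads. Among genes with 0 Col-0 reads, 58.8% of 17 members and 7.34% of 8379 other genes had a read in the dark. In the light these shares were 52.9% and 6.36%. Among genes with 1 Col-0 read, 14 of 26 members and 329 of 1062 other genes had a read in the dark, and 42.3% and 32.4% in the light. Among genes with 2 Col-0 reads, 14 of 20 members and 239 of 572 other genes had one in the dark, and 14 of 20 and 303 of 572 in the light. These strata were added after the first counts had been seen.

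**Figure D3:**
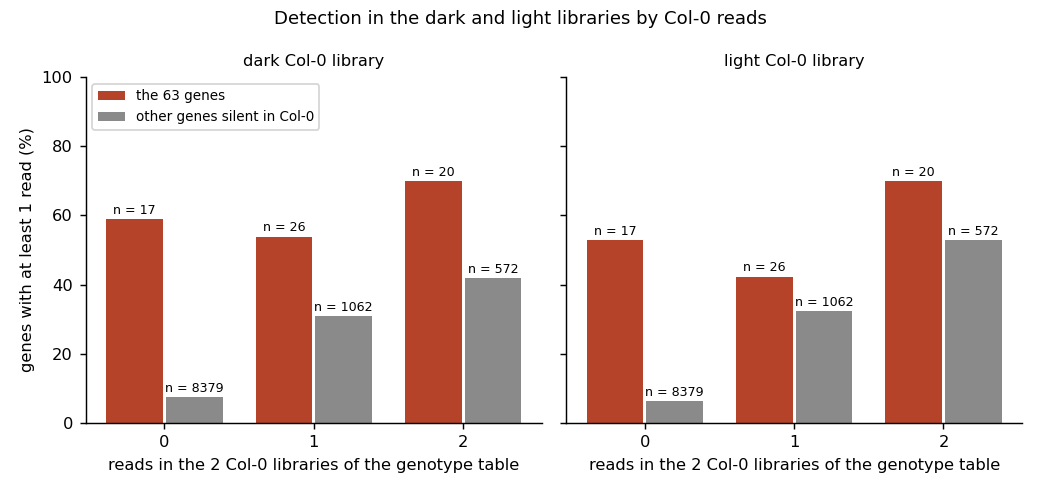
Percentage of genes with at least 1 read (y axis) in the dark (left panel) and light (right panel) Col-0 library, for genes with 0, 1 or 2 reads in the 2 Col-0 libraries of the genotype table (x axis); red bars are the 63 genes and grey bars the other genes under the Col-0 limit, with gene numbers above. The red bar is the taller one in each of the 6 pairs, and the pairs at 0 reads differ most, 58.8% and 7.34% in the dark; the grey genes were not matched on epl1a/b reads.

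A few members carried nearly all reads in the dark. PAP85 had 2822 reads in the dark and 29 in the light, or 150.1 CPM (counts scaled to the library total; exact 95% Poisson interval 145 to 156) and 1.04 CPM (0.698 to 1.496). AT4G25580 had 1128 reads in the dark and 15 in the light, or 60.01 and 0.539 CPM. AT1G15840, the uncharacterised gene, had 803 reads in the dark and 4 in the light, or 42.7 and 0.144 CPM. Together these 3 held 94.9% of the members' 5007 reads in the dark. The other 60 members had 254 reads in the dark and 207 in the light, or 13.5 and 7.44 CPM in sum. Beside PAP85 and AT4G25580, the summed level of the 14 seed genes was 8156 CPM in the dark and 29.5 CPM in the light, and all but LEC1 of that list had a read in the dark. CRA1 alone had 74112 reads in the dark and 365 in the light. The part of seed-type transcripts in the dark values was not tested.

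The other members that reached 10 reads were spread over both libraries. CYP96A3 had 95 reads in the dark and 12 in the light, LOG9 20 and 19, AT2G34317 18 and 0, AT2G03821 13 and 4, and AT4G29770 11 and 1. DREB2C had 2 reads in the dark and 38 in the light, or 0.106 CPM (0.0129 to 0.384) and 1.37 CPM (0.966 to 1.87). AT1G72620 had 3 and 23, and AT4G39404 had 3 and 11. The highest members in epl1a/b were not the ones seen here. AT1G30170 had 0 reads in the dark and 2 in the light, and HDG4, MYB21 and AT3G03930 had 0 in both. By the floor of 3 reads used for counts of 0, this allows up to 0.160 CPM in the dark and 0.108 CPM in the light. FWA had 9 reads in the dark and 3 in the light, MEA 5 and 0, AGL6 0 and 5, and PLS 0 and 0. The tables were normalised separately, so levels in them are not set against each other.

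**Figure D4:**
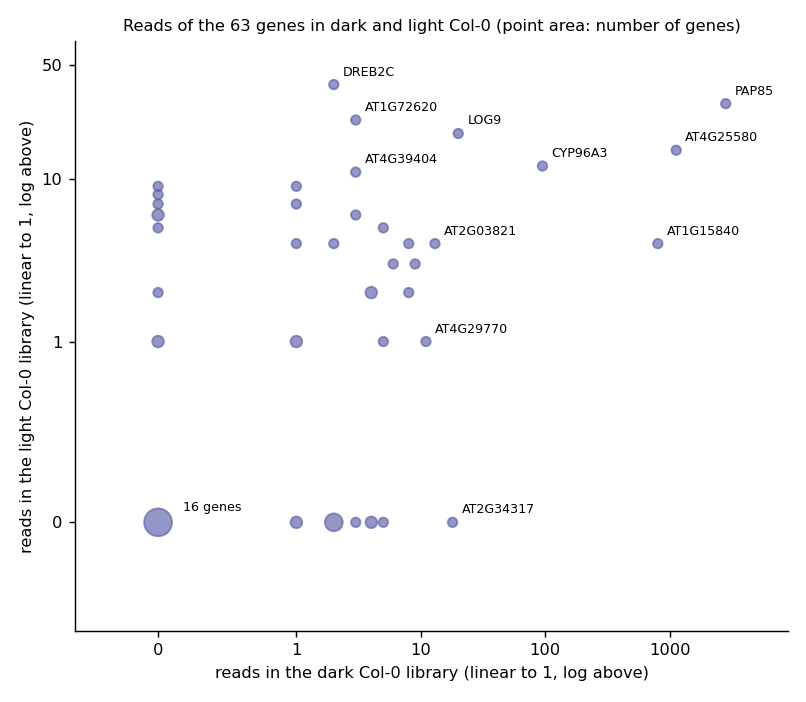
Reads of the 63 genes in the dark (x axis) and light (y axis) Col-0 libraries, linear up to 1 and logarithmic above; point area grows with the number of genes at that position. The 16 genes without a read sit at the lower left, and PAP85, AT4G25580 and AT1G15840 stand apart at the right with 803 to 2822 reads in the dark.

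The members lay on all 5 chromosomes. Chromosome 1 held 15 (23.8%, against 26.6% of the table), chromosome 2 held 8 (12.7% and 15.9%), chromosome 3 held 11 (17.5% and 19.8%), chromosome 4 held 14 (22.2% and 15.1%) and chromosome 5 held 15 (23.8% and 22.6%). On chromosome 1 they ran from MEA (AT1G02580), starting at base 544733 of 30427671, to AT1G73610 at 27678313. The 2 ends on chromosome 2 were MEE65 (AT2G01280) at 145676 and AGL6 (AT2G45650) at 18804190. On chromosome 3 the first was AT3G03930 at 1011310 and the last AT3G09095 at 21523458. On chromosome 4 they began at AT4G11393, at 6932319, and ended at AT4G39404 at 18329734. On chromosome 5 they ran from GRP14 (AT5G07510) at 2377703 to AT5G66564 at 26567521. Locus numbers follow position for 58 members. AT3G05655, AT3G09095, AT5G07105, AT5G07115 and AT5G07295, all non-coding, lie 9.39 to 18.7 Mb from the coding gene of the nearest number.

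Close pairs were few. PLS and AT4G39404 are 34 bases apart on the same strand, AT5G07105 and AT5G07115 are 377 bases apart on opposite strands, and AT5G11412 and AT5G11416 are 1459 bases apart on the same strand. FWA and AT4G25580 are 13718 bases apart with 3 genes between them. No other members lay within 20 kb of each other. AT1G15772, AT1G15840 and AT1G16290 lie 277, 255 and 135 kb from EPL1A, which gives 4.76% of members within 500 kb of that gene, against 1.09% of the table. No member lay within 500 kb of EPL1B. The window was chosen after the positions had been seen. Of the other genes within 500 kb of EPL1A, 22.5% of 276 tested were called higher and 25.4% lower, beside 22.5% and 24.1% of all genes.

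Genes next to the members were examined as well. Of the 121 nearest genes on either side that did not meet the limits, 81 could be tested. Limma called 25 of them higher (30.9%) and 11 lower (13.6%), with a median log2 change of 0.19, beside 22.5% higher, 24.1% lower and a median of 0.02 for all genes tested. With the nearest 2 genes on each side, 31.7% of 167 were higher and 20.4% lower. Those upstream on the opposite strand were near the shares of all genes, with 4 of 22 higher (18.2%), 5 lower (22.7%) and a median of -0.17. UPI, a protease inhibitor gene next to AT5G43570, had 569 and 883 in epl1a/b and 117 and 131 in Col-0 (log2 change 2.51 ± 0.21; limma adjusted p = 0.000297). NSP2, upstream of RLP28, had 37.8 and 28.6 in epl1a/b and 4.21 and 3.13 in Col-0 (2.87 ± 0.39; limma adjusted p = 0.00077). ELI3-1, upstream of ELI3-2, had 6280 and 6051 in epl1a/b and 3103 and 2740 in Col-0 (1.08 ± 0.08; limma adjusted p = 4.36e-05). Others went the other way. The carboxypeptidase gene scpl42, 55 bases downstream of AT5G42235, had 321 and 326 in epl1a/b and 871 and 821 in Col-0 (-1.38 ± 0.08; limma adjusted p = 1.22e-05). ABCB15, beside ABCB16, had 469 and 468 in epl1a/b and 1149 and 1239 in Col-0 (-1.35 ± 0.08; limma adjusted p = 1.07e-05). These neighbours were named after their values had been seen.

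Short motifs were counted on both strands of the 250 bases before the start. The RY element CATGCA, bound by seed B3 factors and by the VAL repressors, was present in 13 of 63 members (20.6%), in 10.7% of all genes under the Col-0 limit and in 8.77% of all genes. The 13 included AT1G30170, PAP85, GRP14, PLS, LCR25, AT4G11393, CYP96A3 and SOT7. Within 100 bases it was present in 5 members (7.94%), against 4.61% of genes under the limit and 3.34% of all. The telobox AAACCCTA was present in 6.35% of members, 6.66% of genes under the limit and 4.61% of all. GAGAGA was present in 14.3%, 22.9% and 20.7% of the same groups, and the G-box CACGTG in 4.76%, 3.24% and 5.90%. The W-box, TTGACC or TTGACT, was present in 33.3%, 26.6% and 27.8%, and the TATA box TATAAA in 52.4%, 45.8% and 46.1%. The heat shock element was in 0 members and in 0.412% of all genes. A match describes these letters in this window and shows no binding.

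The genes that encode the silencing machinery were tested in the fit over all genes. Without MEA, whose difference the choice of members fixed, 13 Polycomb genes were tested. Limma called 3 of them higher and 1 lower, beside 22.5% and 24.1% of all genes tested, and their median log2 change was 0.10. BMI1C, a RING subunit of the complex that ubiquitinates H2A, had 28.8 and 29.7 in epl1a/b and 2 and 1 reads in Col-0 (3.59 ± 0.44, SE; limma adjusted p = 0.000461). It fell just outside the limits used for the members. Its relative BMI1A had 381 and 374 in epl1a/b and 210 and 189 in Col-0 (0.92 ± 0.11; limma adjusted p = 0.000328). RING1B had 195 and 229 in epl1a/b and 141 and 131 in Col-0 (0.63 ± 0.14; limma adjusted p = 0.00675), a call lost without Col-0 replicate 2 (0.58) or epl1a/b replicate 2 (0.52). LHP1, which reads H3K27 methylation, had 292 and 258 in epl1a/b and 359 and 369 in Col-0 (-0.41 ± 0.10; limma adjusted p = 0.0143). That call was lost without Col-0 replicate 1 (-0.43), Col-0 replicate 2 (-0.38) or epl1a/b replicate 2 (-0.32), by DESeq2 (-0.40) and with scaling to library totals (-0.17). BMI1B had the largest change among those that did not pass (-0.26 ± 0.13; limma adjusted p = 0.144). The catalytic subunits CLF and SWN did not pass either, with log2 changes of -0.14 and -0.09.

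Of 14 genes of DNA methylation, limma called 3 higher and 3 lower, beside 22.5% and 24.1% of all genes tested, with a median log2 change of -0.03. ROS1, a DNA demethylase, had 433 and 332 in epl1a/b and 863 and 1083 in Col-0 (-1.35 ± 0.16; limma adjusted p = 0.00109). CMT2, a methyltransferase of heterochromatin, had 367 and 307 in epl1a/b and 826 and 868 in Col-0 (-1.33 ± 0.10; limma adjusted p = 4.78e-05). DME, the demethylase that activates MEA and FWA in the central cell of the ovule, had 811 and 780 in epl1a/b and 1308 and 1449 in Col-0 (-0.79 ± 0.08; limma adjusted p = 0.000182). NRPE1, the large subunit of RNA polymerase V, had 530 and 520 in epl1a/b and 381 and 383 in Col-0 (0.46 ± 0.08; limma adjusted p = 0.00312). The other calls were DDM1 and KYP (0.42 and 0.33). DDM1 lost its call without Col-0 replicate 1 (0.41) or epl1a/b replicate 1 (0.38). KYP lost its call without any 1 of the 4 libraries (0.28 to 0.38), by DESeq2 (0.34) and with the replicate block (0.33). MET1, which maintains the methylation of FWA, did not pass (0.13 ± 0.07; limma adjusted p = 0.163), and of those that did not pass DRM2 had the largest change (-0.22 ± 0.10; limma adjusted p = 0.114). Of 5 H3K27 demethylase and VAL genes limma called 0, and edgeR and DESeq2 also called 0. At an unadjusted limma p under 0.05 there were 0 of the 5, beside 12819 of all 23658 genes tested. JMJ13 had the largest change there (-0.20 ± 0.12; limma adjusted p = 0.206). Scaling to library totals moved the median of all genes to 0.26 and called 8822 genes higher and 3672 lower, in place of 5333 and 5707. It turned DRM2 and JMJ13 to 0.02 and 0.04. Signs under this scaling were looked up only for DRM2, JMJ13 and some other singly named genes. CLF and SWN were not among them, so small negative changes like theirs may turn as well. Calls under this scaling were 8 Polycomb genes higher, MEA included, and 0 lower, 6 methylation genes higher and 3 H3K27 demethylase and VAL genes higher.

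**Figure D5:**
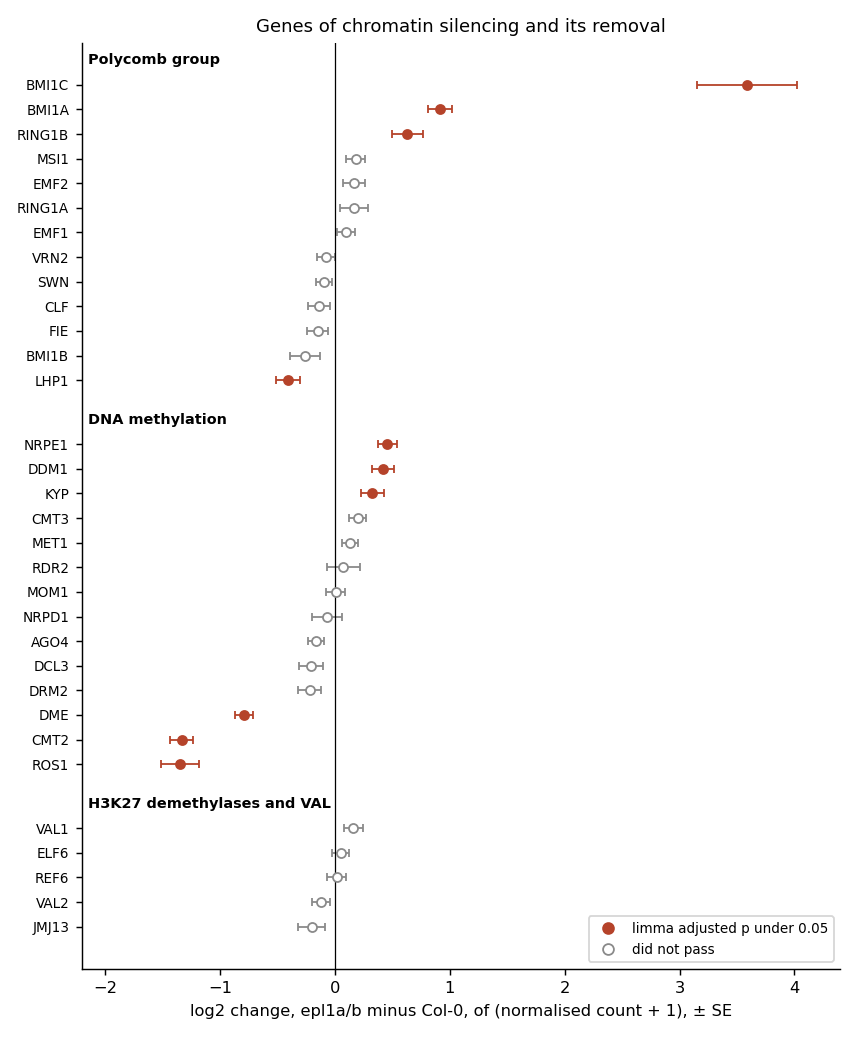
Log2 change, epl1a/b minus Col-0, of normalised count plus 1 (x axis) with its SE for genes of the Polycomb group, DNA methylation, and H3K27 demethylases with VAL repressors, without MEA; red points passed a limma adjusted p of 0.05. BMI1C stands apart at 3.59, ROS1 and CMT2 lie lowest at -1.35 and -1.33, and most open points lie within 0.3 of zero, some of which change sign when values are scaled to library totals.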

How the data were processed

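The genotype table held a signal of normalised read counts per gene that the authors had deposited, per the file headers, and the dark and light table held raw counts. The submitters' processing notes name HISAT2, featureCounts, edgeR and TAIR10, without versions or settings. The deposited normalised values could be inverted to whole reads for 32548 of 32548 genes (tolerance 1e-06, common dispersion 0.00642), by undoing the equalisation of library sizes that edgeR applies, under which a library without a read can hold a value slightly above 0. Reads given in the text are these. The lower deposited totals of epl1a/b (16677372 and 16668568) than of Col-0 (19841584 and 19527327) come from this scaling.

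The plan assigned limma to normalised values and edgeR to counts. limma 3.58.1 (R 4.3.3, trend and robust) was run on log2(value + 1) for the 23658 genes with at least 1 in at least 2 libraries, with genotype alone. Calls needed an adjusted p under 0.05 (Benjamini-Hochberg, over all genes), and fold changes on this scale understate low genes. edgeR 4.0.16 and DESeq2 1.42.0 on the recovered reads were alternatives. The fit was tested on simulated data. The members, role groups and lists were chosen with earlier results of these data known. Named members are the highest, those with a symbol, those near a limit or another member, and the most uneven or most read in dark and light. Same-numbered libraries did not deviate together (r = -0.14 across 23658 genes), and the model held no replicate block, as planned. Positions and sequences are from TAIR10.1 (RefSeq), and 0 columns went unmapped. Intervals and floors cover counting error only.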

Additional observations from a re-analysis of the deposited data

How the results depend on the processing

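Scaling to library totals called 8822 genes higher and 3672 lower, in place of 5333 and 5707, and gave the list counts and the sign changes of DRM2 (0.02) and JMJ13 (0.038) printed above, with 2 flower genes and 1 pollen gene higher. Leaving out 1 library gave 2660 to 3689 genes higher and 3836 to 4147 lower. Across these the Polycomb list had 0 to 1 lower, DNA methylation 1 to 2 higher, flower 0 to 1, seed 0 to 1 higher, and root 0 to 3 lower. The endosperm count (1 to 2) is FWA and MEA alone, which the choice of members fixed, so nothing is read from it. DESeq2, which called 3805 of 25765 genes higher and 4378 lower, called 0 of 15 Polycomb genes lower and 0 of 7 flower genes higher. It called 1 of 9 seed genes higher and 2 of 6 root genes lower. edgeR, which called 5290 of 20649 genes higher and 5497 lower, called 2 of 4 flower genes higher and 2 of 6 root genes lower. A pseudocount of 5 gave 2 flower genes higher (5408 of 23658 in all), and DESeq2 size factors also 2 (5491 of 23658). No filter gave 1 pollen gene higher (5448 of 25765 in all). The limits set the membership: 17 genes with a Col-0 sum under 1, 145 under 6, 192 at 5 or more in each epl1a/b library, 21 at 20 or more, and 87 to 128 without 1 library. All 63 members met the limits under 3 other scalings, which gave 72 to 85 genes. Nothing is read from the 63, because these scalings use the same reads as the rule. Members present at 10 reads, at 1 CPM and at 1 CPM with TMM factors were 8, 5 and 4 in the dark and 7, 2 and 2 in the light. Neighbours called higher were 53 of 167 with 2 genes per side and 8 of 26 downstream on the same strand, beside 22.5% of all genes. Within 100 bases 5 members held an RY element, 3 GAGAGA and 8 a W-box.

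With the replicate number as a block, limma called 4578 genes higher and 5099 lower, KYP lost its call (0.33), and no other named call of the lists changed. A crossed pairing, added after seeing the data, gave 5353 and 5585 in all, with 2 flower genes higher and 2 root genes lower. With 2 libraries per genotype, 1 each in dark and light and 2 reads or fewer in Col-0, single members carry wide counting error. The cause of these shifts was not tested.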
